A study of Acromyrmex echinatior with 18 samples.

Results

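The sites described here are A-to-G changes in head RNA of Acromyrmex echinatior, a leaf-cutting ant, that lie alone and outside every annotated element. They were the rows of the authors' site table with an A-to-G change, with none of coding sequence, 3' UTR, 5' UTR, intron or transposable element as target, and with no other A-to-G row on the same scaffold and strand within 50 bases. Of the 17229 rows of the table, 1284 (7.45%) met this rule, which is 19.7% of the 6504 A-to-G rows without annotation. The rule used the annotation and the positions, and no editing level or depth directly. Isolation is counted among rows that the authors called, however, and a call needs reads as well as editing. Comparisons of depth and level with clustered sites are therefore not independent of the rule, and the part of detection in them was not tested. Every row had been kept by the authors as edited in at least 1 library, so that the sites are a selected sample of isolated positions.

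A-to-G changes are the trace of A-to-I editing. ADAR enzymes deaminate adenosine to inosine in double-stranded RNA, and sequencing reads inosine as guanosine. Long perfect duplexes, such as those formed by inverted repeats, are known to be edited at many neighbouring adenosines, whereas short and imperfect duplexes are known to be edited at single positions. In insects the best known single sites lie in messages of the nervous system, where they can change an amino acid.

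Small workers, large workers and gynes (females that can become queens) were each sampled from 3 colonies, so that there are 9 RNA libraries. Colony A is Ae322, colony B is Ae356 and colony C is Ae363. The colonies came from the field in Panama and were kept in the laboratory, and no ant was given a treatment. Each small worker library was made from 200 pooled heads, and each large worker and gyne library from 50. Matched DNA libraries came from the pooled bodies of the same castes and colonies. A library is therefore a pool of ants of 1 colony, a head holds brain, glands and muscle together, and the age of the ants is not given in the sources used here. Fewer cells of a type and less RNA per cell cannot be told apart in such pools.

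The sites were spread over 295 of the table's 405 scaffolds, 620 on the plus strand and 664 on the minus strand. Scaffold 344 held the most, 29, and 83 scaffolds held a single one. The median distance to the nearest A-to-G row on the strand was 540 bases (3 bases for the 5220 clustered unannotated sites, those with another such row within 50 bases). The next row lay between 51 and 100 bases away at 294 sites, and at 362 sites it lay more than 5000 bases away or no other row existed on the scaffold and strand. In the DNA every site had at least 10 reads in each library and 0 reads with the edited base.

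The sites were thinly covered. In small workers the median site had 10 RNA reads in colony A, 9 in colony B and 8 in colony C. In large workers the medians were 6, 3 and 4 reads, and in gynes 6, 4 and 4. All 3 small worker libraries were thus deeper than the other 6, and large workers of colony B were the shallowest. Clustered unannotated sites had medians of 22, 23 and 19 reads in small workers, 16, 8 and 10 in large workers and 13, 12 and 10 in gynes. Isolated sites lay below clustered ones in each of the 9 libraries, with a difference of -1.32 ± 0.15 in the log2 of the median (SD, n = 9 libraries, exact two-sided sign-flip p = 0.0039, the smallest that 9 libraries allow). The same sites were read in all 9 libraries, so this test covers the spread between libraries and not that between sites. Depth is also not independent of the rule, as stated above. Isolated sites inside annotated elements were as thin, with medians of 9, 9 and 7 reads in small workers, 6, 3 and 4 in large workers and 5, 4 and 4 in gynes. Of the 1284 sites, 605 had 0 reads in at least 1 library and 468 had fewer than 10 reads in every library.

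**Figure D1:**
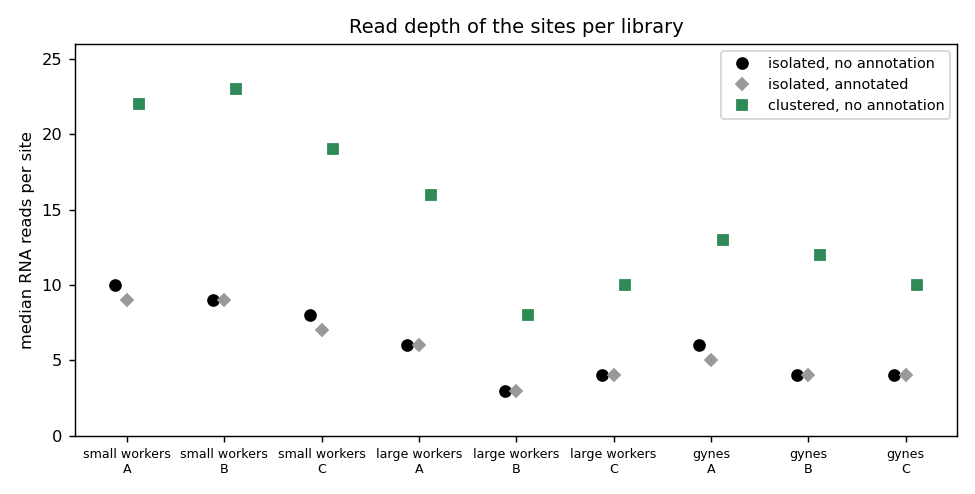
Median number of RNA reads per site (vertical axis) in each of the 9 libraries (horizontal axis, caste and colony), for isolated sites without annotation, isolated annotated sites and clustered sites without annotation. Isolated sites without annotation lie between 3 and 10 reads, and clustered ones between 8 and 23.

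Levels, edited reads divided by all reads at a site in a library, were compared at 235 sites (18.3%), those where each of the 9 libraries had 10 or more RNA reads. Of clustered unannotated sites 1697 (32.5%) passed this minimum, and of isolated annotated sites 341 (18.8%). The 235 sites are the well covered part of the set and had a median of 65.1 reads per library. Their reads carry no molecular identifiers, so depth bounds counting error only.

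Most of the tested isolated sites were edited in a small share of transcripts. The mean level over the 9 libraries was below 5% at 129 of the 235 sites (54.9%) and below 10% at 190 (80.9%). The median site stood at 4.503%, with quartiles at 2.73% and 8.26% and a range from 0.617% to 76.4%. Only 10 sites reached 20% and 2 reached 50%. Clustered unannotated sites had a median of 8.67% with quartiles at 4.53% and 18.7%, and isolated annotated sites a median of 5.32% with quartiles at 3.14% and 10.8%. The distribution of the tested isolated sites was thus lower at each quartile than both others. The thinnest sites stood higher. With a minimum of 5 reads, 365 isolated sites averaged 10.9% in small workers, 9.21% in large workers and 7.71% in gynes. The 235 sites averaged 8.45%, 7.18% and 5.81%, so the low levels describe the well covered sites and not the whole set. With a minimum of 20 reads, 143 sites averaged 8.59%, 7.15% and 5.94%, so the level did not keep falling with depth.

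The question that the castes pose is whether isolated sites differ in level between them. The mean level over the 235 sites was 8.64% in colony A, 7.96% in colony B and 8.76% in colony C for small workers. Large workers had 7.44%, 6.65% and 7.45%, and gynes 5.88%, 5.98% and 5.56%. The 3 castes did not overlap, and in each colony small workers were highest and gynes lowest. The caste means were 8.45% ± 0.432 in small workers, 7.18% ± 0.461 in large workers and 5.81% ± 0.219 in gynes (SD, n = 3). Small workers lay 2.64 percentage points above gynes, with 2.76, 1.98 and 3.19 points in colonies A, B and C. Large workers lay 1.37 points above gynes, with 1.56, 0.669 and 1.89 points in the 3 colonies. Small workers lay 1.27 points above large workers, with 1.20, 1.31 and 1.31 points. All 5720 tested sites of the table follow the same order, so the order is not particular to isolated sites.

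Small worker libraries were also the deepest, and a site had to be seen as edited somewhere to enter the table. Measured in each colony over sites that the authors had marked in a library of another colony, the levels were 8.62% in small workers, 7.27% in large workers and 5.95% in gynes. The libraries of the other colonies include small workers, so this measure cannot remove a selection of sites through that caste. Over the 58 sites marked in all 9 libraries they were 16.2%, 14.1% and 12.6% in the same order of castes. Summed over the reads of all 1284 sites, thin ones included, 11.3% ± 0.293 of reads were edited in small workers, 9.43% ± 0.678 in large workers and 8.92% ± 0.298 in gynes. Large workers of colony A, at 10.1%, lay above all gyne libraries there, while those of colony B, at 8.79%, lay within the gyne range of 8.70% to 9.26% and those of colony C, at 9.34%, just above it. The 2 deepest sites hold 33.6% of these reads. Without them the shares were 11.7% ± 0.275 in small workers, 9.17% ± 0.804 in large workers and 8.87% ± 0.278 in gynes, and large workers of colony B, at 8.32%, lay below all gyne libraries (8.56% to 9.09%).

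**Figure D2:**
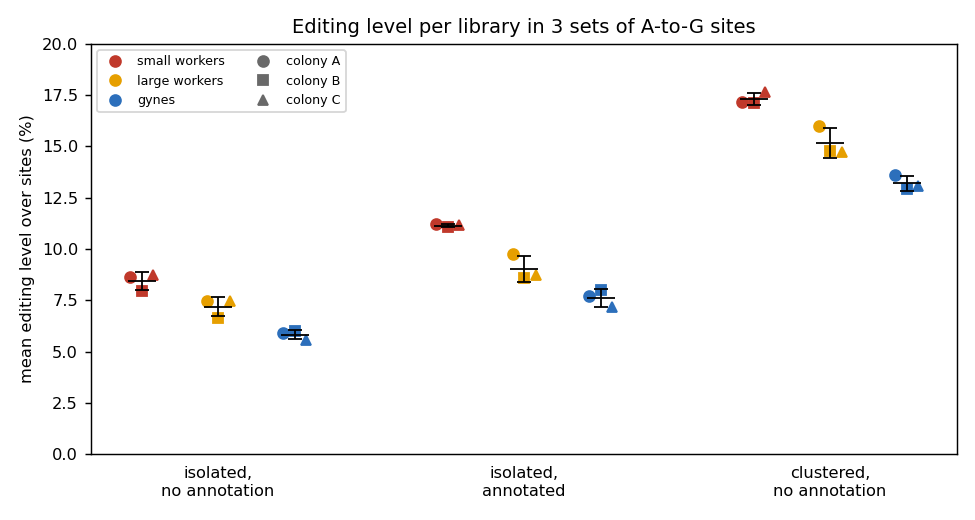
Mean editing level over sites (vertical axis, %) in small workers, large workers and gynes for 3 sets of sites, each site with 10 or more reads per library. Each point is a library, its shape the colony, and bars show the mean and SD of 3 libraries. Isolated sites without annotation average 8.45% in small workers, 7.18% in large workers and 5.81% in gynes, below both other sets.

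The gap between castes was found at low and at high sites. At the 129 sites with a mean level under 5%, small workers averaged 3.64% ± 0.299, large workers 2.80% ± 0.343 and gynes 1.96% ± 0.192 (SD, n = 3). At the 61 sites from 5% to 10% the values were 8.40% ± 1.001, 7.55% ± 1.88 and 5.94% ± 0.309. The 35 sites from 10% to 20% stood at 16.5% ± 0.883, 13.7% ± 1.18 and 11.7% ± 1.46. In all 3 classes the small worker libraries lay above the gyne libraries without overlap. At the 10 sites above 20% the averages were 42.6% ± 5.13, 38.4% ± 2.48 and 34.1% ± 1.73, again without overlap between small workers and gynes. As a ratio, small workers stood at 1.86 times the gyne level in the lowest class, 1.41 times in each of the middle classes and 1.25 times in the highest. Sites of the lowest class were marked by the authors in 4.09 of the 9 libraries on average, against 7.20, 7.80 and 8.90 in the higher classes. Small worker libraries were the deepest, and the part of this selection in the ratios was not tested.

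Compared with their clustered counterparts, isolated unannotated sites were edited less in every library. Clustered unannotated sites averaged 17.3% ± 0.288 in small workers, 15.2% ± 0.719 in large workers and 13.2% ± 0.368 in gynes (SD, n = 3). The difference was -8.08 ± 0.764 percentage points (SD, n = 9 libraries), from -9.18 to -6.94 points in single libraries, which put the isolated sites at 0.467 ± 0.0295 of the clustered level (exact two-sided sign-flip p = 0.0039). Isolated annotated sites averaged 11.2% ± 0.0866, 9.01% ± 0.630 and 7.61% ± 0.420, and the unannotated ones differed from them by -2.11 ± 0.547 points (exact sign-flip p = 0.0039). With summed reads in place of a mean over sites that second difference shrank to -0.214 points and did not pass (exact sign-flip p = 0.5), and with the 2 deepest sites also left out it was -1.55 points (exact sign-flip p = 0.00781). All 9 libraries read the same sites, so these tests cover the spread between libraries and not that between sites.

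The lower level of isolated sites was seen within bands of depth as well. Among sites with a mean of 10 to 30 reads, 26 isolated ones averaged 14.2% in small workers, 11.6% in large workers and 10.1% in gynes, against 22.1%, 19.5% and 17.1% at 257 clustered ones. Among sites with 30 to 100 reads, 138 isolated ones averaged 8.04% in small workers, 7.03% in large workers and 5.32% in gynes, against 16.5%, 14.3% and 12.5% at 1093 clustered ones. Among sites with 100 to 300 reads, 47 isolated ones averaged 6.45%, 5.20% and 4.59%, against 16.4%, 14.7% and 12.5% at 297 clustered ones. With 300 or more reads, 24 isolated ones averaged 8.54%, 7.11% and 6.40%, against 15.6%, 13.7% and 11.8% at 50 clustered ones. Isolated sites were lower in all 4 bands, within which depth still varied.

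The relative difference between small workers and gynes was set beside that of the other sets. Small workers stood at 1.46 times the gyne level there, against 1.31 times at clustered unannotated sites, 1.46 times at isolated annotated sites and 1.34 times over all tested sites. The isolated level was 0.488 ± 0.0208 of the clustered level in small workers, 0.473 ± 0.0288 in large workers and 0.440 ± 0.0200 in gynes (SD, n = 3). The change in this ratio from gynes to small workers was 0.15 on the log2 scale (exact permutation p = 0.1, two-sided). That is as low as 3 libraries a caste can give, so the test could not pass at 0.05 and decides nothing here. The change came to 0.05 with summed reads and 0.05 over sites marked in all 9 libraries (exact permutation p = 0.6 and 0.4).

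Levels were lower the farther the nearest other A-to-G site lay, also beyond the 50 bases of the rule. At 55 sites 51 to 100 bases from the next it averaged 10.6% ± 0.295 in small workers, 9.58% ± 0.927 in large workers and 7.95% ± 0.228 in gynes (SD, n = 3). At 61 sites more than 5000 bases away or alone it averaged 6.61% ± 0.666, 5.87% ± 0.403 and 3.98% ± 0.4002. Clustered unannotated sites continued the gradient on the near side. Those 26 to 50 bases from the next, 72 in number, averaged 11.9%, 10.4% and 9.12%, and the 1144 sites within 5 bases averaged 19.0%, 16.8% and 14.6%. No step was seen at the limit of 50 bases. The 237 sites 11 to 25 bases from the next averaged 12.1%, 10.3% and 8.68%, no higher in large workers and gynes than those at 26 to 50 bases. The gradient was not strictly monotonic on the far side either, since 26 sites 501 to 1000 bases away (8.53%, 6.89% and 6.61%) lay above 18 sites 201 to 500 bases away in small workers and in gynes (7.44%, 7.29% and 5.02%). Thin sites followed the distance too, with a median of 7.72 reads per library at 51 to 100 bases and 4.50 reads beyond 5000 bases over all sites, and their part in the gradient was not tested. Among the tested sites the medians were 59.8 and 67.1 reads.

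**Figure D3:**
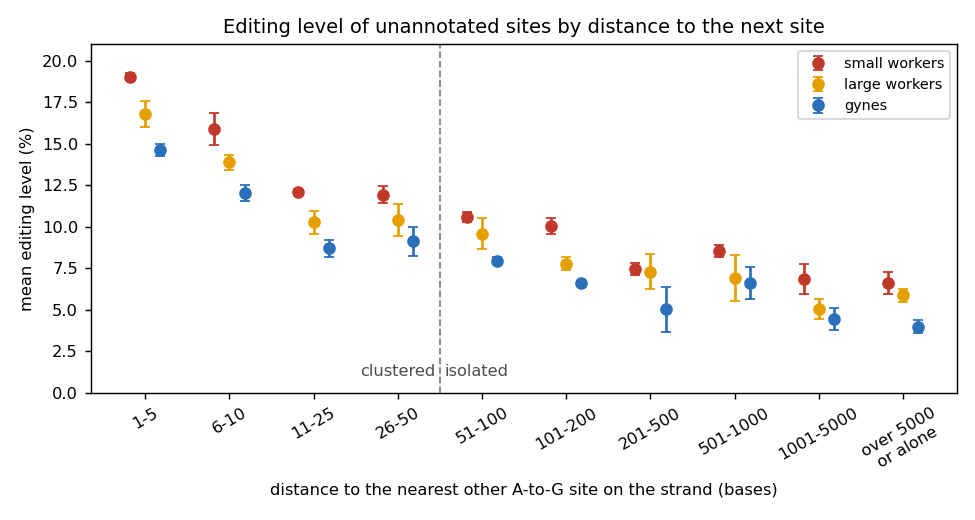
Mean editing level (vertical axis, %) of unannotated sites in classes of distance to the nearest other A-to-G site on the same strand (horizontal axis, bases). Points are means and bars SDs of 3 libraries, and the dashed line is the limit between clustered and isolated sites. In small workers the mean goes down from 19.0% in the nearest class to 6.61% in the farthest.

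Sites at the limit are given as examples. They are few and most are thin, so they cannot show how well the limit separates levels. Just inside, at 51 bases, the deepest lay at position 557063 of scaffold 344, with 8 of 53 reads edited over small workers, 4 of 35 over large workers and 4 of 34 over gynes. At position 838571 of scaffold 64 the counts were 4 of 44, 5 of 23 and 6 of 26, and at position 38290 of scaffold 399 they were 10 of 30, 23 of 42 and 13 of 36. Just outside, at 50 bases, position 637608 of scaffold 397 was far deeper, with 287 of 7312 reads edited over small workers, 89 of 2406 over large workers and 84 of 2033 over gynes. Position 451520 of scaffold 438 had 7 of 30, 6 of 27 and 1 of 11 reads edited, and position 12059 of scaffold 887 had 9 of 22, 22 of 27 and 7 of 17. Levels differed widely on both sides, and the lowest were those of the deep site on scaffold 397.

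Which single sites differed between castes was asked with a quasi-binomial test per site, adjusted by the Benjamini-Hochberg method over all 5720 tested sites of the table. Among the 3 castes 10 of the 235 isolated sites passed an adjusted p of 0.05 (4.26%), where 6.36% of all tested sites passed. Between small workers and gynes 13 sites rose in small workers (5.53%, where 8.09% of all tested sites did) and 1 fell (0.426%, where 0.14% did). Between small and large workers 4 sites rose in small workers (1.70%, where 0.857% did) and 0 fell (0.0175%), with 0.874% of all tested sites called in either direction. In large workers against gynes 0 sites passed the quasi-binomial test (26 at an unadjusted p under 0.05) and 0 passed limma on arcsine-square-root levels (20 unadjusted), where 0.472% of all tested sites passed the first (0.437% higher and 0.035% lower in large workers). These shares lie near those of the table as a whole. In total 15 sites passed at least 1 of the 4 tests, and 14 of these had their highest mean in small workers.

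The calls depend on how the spread between libraries was estimated. With all 9 libraries squeezeVar, which pools the dispersion over sites, returned a single value of 1.88 for all sites. When the colony was added as a replicate block it returned values per site, and 0 of the 235 sites passed among the castes, between small workers and gynes or between small and large workers (unadjusted p under 0.05 at 28, 44 and 30 sites). Given the block and a single dispersion for all sites, 17, 16 and 6 sites passed. Leaving out any single library likewise gave values per site and left 0 to 4, 1 to 5 and 0 sites in these tests, whereas with a single dispersion it left 7 to 12, 7 to 14 and 1 to 4. In that form the count for small workers against gynes was 8 without small workers of colony B and 7 without gynes of colony B or of colony C. For small against large workers it was 2 without small workers of colony C, and 1 without large workers of colony B or of colony C. Relative to the overall shift of the castes, 4 sites were higher in small workers than in gynes (1.70%, where 1.31% of all tested sites were) and 2 lower (0.851%, where 0.35% were), against 13 and 1 without that scaling. The 4 were the called sites on scaffolds 326, 474 and 614 and position 267751 of scaffold 166. The 2 were position 646567 of scaffold 397 and position 8978 of scaffold 874.

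Without a threshold on p, small workers had the higher mean at 175 of the 235 sites (74.5%, where 74.6% of all tested sites did), with a median difference of 2.08 points, against 2.68 points over all tested sites. The 3 levels of small workers lay above those of gynes without overlap at 47 sites (20%, where 22% of all tested sites did) and below them at 4 (1.70%, where 1.61% did). Large workers lay above gynes without overlap at 25 sites (10.6%, where 9.83% did) and below at 3 (1.28%, where 2.15% did). Small workers lay above large workers without overlap at 26 sites (11.1%, where 12.8% did) and below at 5 (2.13%, where 2.78% did). The order small workers, large workers, gynes was found at 72 sites (30.6%, against 33.2% of all tested sites). In caste pattern the isolated sites therefore resembled the table as a whole, site by site.

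**Figure D4:**
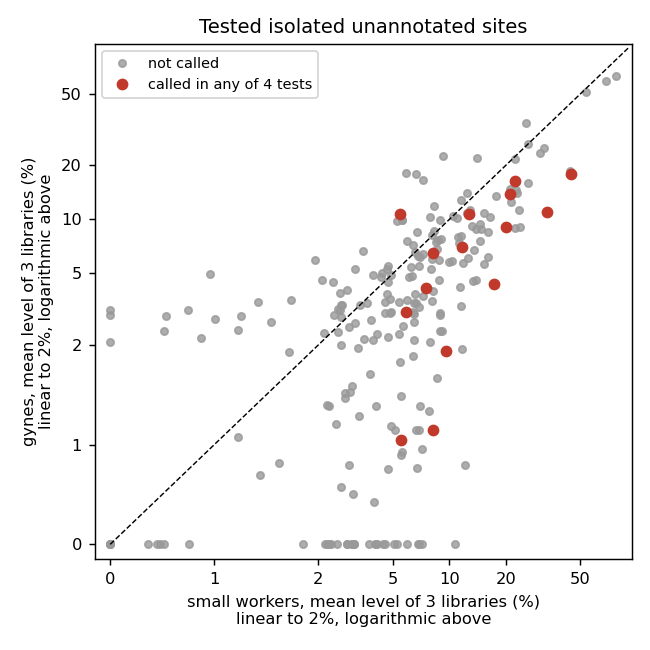
Mean level of 3 small worker libraries (horizontal axis, %) against that of 3 gyne libraries (vertical axis, %) for the 235 tested sites, on axes that are linear to 2% and logarithmic above. The dashed line marks equal levels, and the 15 sites called in any of 4 tests are in red, with 14 of them on the small worker side.

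The most even caste difference was that of position 882655 of scaffold 326, on the plus strand, 13733 bases from the next A-to-G site. It was edited at 16.9%, 19.2% and 15.9% in small workers of colonies A, B and C, at 6.55%, 6.52% and 6.57% in large workers and at 4.19%, 4.52% and 4.39% in gynes, with 114 to 229 reads per library. The 3 castes did not overlap, and within a caste the colonies differed by little. Small workers stood at 17.3% ± 1.69, large workers at 6.55% ± 0.0256 and gynes at 4.36% ± 0.165 (SD, n = 3), 3.97 times as high in small workers as in gynes (adjusted p = 0.000115). The test among the 3 castes gave an adjusted p of 7.94e-05 and that of small against large workers 0.0131. Its own dispersion was 0.112, below the shared value of 1.88. Giving each site the larger of its own and the shared dispersion therefore left the spread of this site unchanged. Only the adjustment over all sites moved. In that setting the site passed among the 3 castes, between small workers and gynes and between small and large workers (adjusted p = 0.000198, 0.000252 and 0.0435). For this site that is not a test with a larger spread. The closest row of the table in a gene lay 107054 bases away, in an intron of Aech_00388 on the other strand, a gene whose protein is uncharacterized.

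At position 541408 of scaffold 474, on the plus strand, the levels were 30.2%, 21.97% and 47.0% in small workers, 19.7%, 6.25% and 12.5% in large workers and 15.96%, 13.9% and 2.94% in gynes, with 72 to 137 reads. Small workers lay above both other castes, while large workers and gynes overlapped. The site rose by 22.1 points between small workers (33.0% ± 12.8) and gynes (10.9% ± 7.002, SD, n = 3, adjusted p = 0.000276), and by 20.2 points between small and large workers (adjusted p = 0.0312). Its own dispersion of 5.47 was well above the shared one, and with it the adjusted p was 0.253. The nearest gene row, 40410 bases upstream on the same strand, lay in an intron of Aech_09351, a muscleblind-like protein, a family of splicing regulators.

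Scaffold 166 held a pair of called sites on the plus strand, 4309 bases apart. The one at position 272060 had the largest difference among the called sites, with 30.6%, 60.4% and 43.3% in small workers, 20.5%, 32.0% and 38.1% in large workers and 25.8%, 15.6% and 12% in gynes (21 to 48 reads). Small workers (44.8% ± 15.0) lay 27.0 points above gynes (17.8% ± 7.16, SD, n = 3, adjusted p = 0.0286), and large workers overlapped with both. The one at position 267751 was edited at 8.97%, 9.05% and 10.8% in small workers, 2.64%, 0.389% and 6.07% in large workers and 1.54%, 0.995% and 3.27% in gynes (186 to 341 reads). Here small workers (9.59% ± 1.01) stood at 4.95 times the level of gynes (1.94% ± 1.19, adjusted p = 0.000533) and above all large worker libraries (3.03% ± 2.86, adjusted p = 0.0216). The own dispersions were 2.01 and 3.23, and with them neither site passed (adjusted p = 0.206 and 0.170 for small workers against gynes). The closest gene row for both was an intron of Aech_14582, a nucleolar protein, more than 32 kb away on the other strand.

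At position 841124 of scaffold 398, on the plus strand, editing was seen almost only in small workers. The site was at 8.44%, 7.98% and 8.18% there, with 19 of 225, 19 of 238 and 13 of 159 reads edited. In large workers 0 of 85, 0 of 61 and 0 of 25 reads were edited, which over the 3 libraries allows a level of up to 1.75% (3 counts), and in gynes 3 of 87, 0 of 94 and 0 of 33. The bound of 1.75%, and those given below for other sites, treat reads as independent and leave out the spread between libraries. Small workers differed from gynes by 7.05 points (adjusted p = 0.0464) and from large workers by 8.20 points (adjusted p = 0.0312), and the 3 castes had an adjusted p of 0.00281. In the setting with the larger of the own and the shared dispersion only the test among the 3 castes passed (adjusted p = 0.00636). The pairwise tests against gynes and large workers gave adjusted p = 0.0790 and 0.104. The own dispersion of this site, 0.746, lay below the shared one, so only the adjustment over all sites had changed. The next A-to-G site lay 53 bases away, and the nearest gene row 16712 bases upstream, in the 3' UTR of Aech_05573, the ant counterpart of Su(Tpl), which encodes the transcription elongation factor ELL.

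Position 301045 of scaffold 614, on the minus strand, was edited at 3.14%, 6.70% and 6.63% in small workers, 2.23%, 1.31% and 2.51% in large workers and 1.05%, 1.64% and 0.458% in gynes (239 to 537 reads). The castes of small workers and gynes did not overlap, and small workers (5.49% ± 2.04) stood at 5.24 times the level of gynes (1.05% ± 0.593, SD, n = 3, adjusted p = 5.38e-05), the lowest adjusted p among the isolated sites. With its own dispersion of 2.04 the adjusted p was 0.0698.

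Smaller relative differences were called at moderately edited sites. Position 636548 of scaffold 436, on the minus strand, was at 20% ± 4.37 in small workers, 12.04% ± 3.46 in large workers and 9.09% ± 4.03 in gynes (SD, n = 3, adjusted p = 0.0346 for small workers against gynes). It lay 3477 bases downstream of a 3' UTR row of Pur-alpha (Aech_08382), a single-stranded nucleic acid binding protein, on the same strand. Position 1983393 of scaffold 482, on the plus strand, was at 21.2% ± 1.73, 14.6% ± 0.565 and 13.8% ± 3.43 (adjusted p = 0.0450), 3487 bases downstream of an intronic row of Aech_04285, a phosphatase and actin regulator. Position 70411 of scaffold 555, on the plus strand, was at 22.5% ± 0.777, 17.7% ± 3.14 and 16.4% ± 1.39 (adjusted p = 0.0395). In all 3 the levels of small workers lay above those of gynes in every library. In the setting with the larger of the own and the shared dispersion, none of the 3 passed between small workers and gynes (adjusted p = 0.0591, 0.0764 and 0.0674). Their own dispersions (1.71, 1.02 and 1.17) lay below the shared one, so only the adjustment had changed. Position 1983393 still passed there among the 3 castes (adjusted p = 0.0408). Relative to the overall shift of the castes, none of these 3 sites passed between small workers and gynes (adjusted p = 0.405, 0.728 and 0.886).

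The call at position 307730 of scaffold 39, on the plus strand, concerned the 3 castes and no single pair. It was edited at 5.46%, 8.15% and 8.80% in small workers, 3.81%, 1.40% and 2.86% in large workers and 3.52%, 4.70% and 4.30% in gynes, with an adjusted p of 0.0229 among the castes. Small workers were above both other castes, and the mean of large workers (2.69% ± 1.22) lay below that of gynes (4.17% ± 0.601, SD, n = 3).

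Outside the naming rule, and chosen after their values were seen, are 2 further called sites. Position 2279081 of scaffold 142, on the minus strand, was at 13.8%, 7.36% and 14.0% in small workers, 7.80%, 8.77% and 6.87% in large workers and 6.72%, 7.32% and 7.14% in gynes (adjusted p = 0.0271 for small workers against gynes), so that colony B showed almost no difference. The only called site that fell in small workers was position 8978 of scaffold 874, on the minus strand. It was edited at 5.2%, 4.02% and 7.13% in small workers, 9.81%, 5.195% and 4.52% in large workers and 15.6%, 9.40% and 7.07% in gynes (adjusted p = 0.0470). In colony C small workers and gynes were level, and the own dispersion of the site was 3.06. The nearest gene row lay 6847 bases upstream, in the 3' UTR of Aech_13162, a nicotinic acetylcholine receptor subunit of the acr-16 type. With the own dispersions, 2.46 on scaffold 142 and 3.06 on scaffold 874, neither site passed between small workers and gynes (adjusted p = 0.244 and 0.327).

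**Figure D5:**
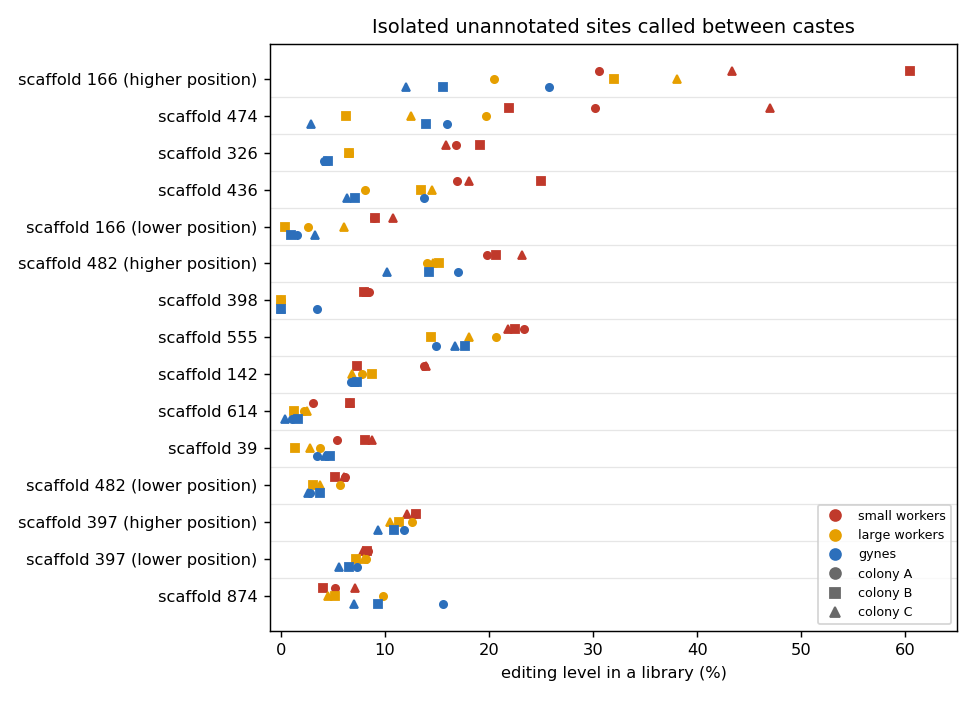
Editing level in each library (horizontal axis, %) at the 15 called sites (rows, named by scaffold and ordered by small workers minus gynes, largest at the top). Each point is a library, its colour the caste and its shape the colony. Red points of small workers lie to the right of those of gynes in the 14 upper rows, for example at 15.9% to 19.2% against 4.19% to 4.52% on scaffold 326, and mostly to the left in the lowest row.

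A pair of sites on the minus strand of scaffold 397 took 33.6% of the 471096 RNA reads over all 1284 isolated sites. At position 646567 the libraries had 5133 to 14298 reads, and the level was 13.0%, 13.0% and 12.2% in small workers, 12.6%, 11.4% and 10.5% in large workers and 11.9%, 10.9% and 9.37% in gynes. At position 641280, with 3160 to 14871 reads, it was 8.40%, 8.30% and 7.94%, then 8.23%, 7.19% and 7.996%, then 7.36%, 6.58% and 5.63%. In both, small workers lay above gynes without overlap while large workers overlapped with the castes on either side. The differences between small workers and gynes were 1.99 and 1.69 points (adjusted p = 0.000124 and 0.000650), with own dispersions of 7.13 and 2.95, under which neither passed (adjusted p = 0.294 and 0.159). Both rose by less than the table as a whole, so that relative to the overall shift of the castes their direction was reversed, with log odds of -0.16 (adjusted p = 0.00383) and -0.12 (adjusted p = 0.293). Both lay on the strand opposite to Aech_10744, the ant counterpart of l(2)efl, a small heat shock protein gene, whose nearest edited rows were 1285 and 3824 bases away.

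The other deeply covered sites had low levels. Position 468730 of scaffold 569, with 841 to 2383 reads, was at 2.62% ± 0.441 in small workers, 2.96% ± 0.569 in large workers and 3.15% ± 1.93 in gynes (SD, n = 3, adjusted p = 0.718 for small workers against gynes). Position 985670 of scaffold 482, with 455 to 1419 reads, was at 5.85% ± 0.529, 4.19% ± 1.38 and 3.07% ± 0.589, and it rose in small workers against gynes (adjusted p = 0.0103). Its own dispersion of 1.62 lay below the shared one. The setting with the larger dispersion thus left its spread unchanged and moved only the adjustment (adjusted p = 0.0194). On the same scaffold and strand, 3036 bases on, position 988706 was at 4.85% ± 0.597, 2.71% ± 0.605 and 2.99% ± 1.06 and did not pass (adjusted p = 0.255).

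The highest level of the set was found at position 438384 of scaffold 708, on the minus strand, 9525 bases from the next site. It was edited at 63.3%, 81.6% and 88.6% in small workers, 94.1%, 100% and 70.0% in large workers and 52.9%, 76.9% and 60% in gynes, with 10 to 38 reads. The castes overlapped and no test passed (adjusted p = 0.413 for small workers against gynes). Position 6982 of scaffold 763, on the minus strand, followed with 68.9% ± 7.75 in small workers, 61.9% ± 4.93 in large workers and 58.9% ± 14.3 in gynes (SD, n = 3). Its nearest gene row, 6121 bases away on the same strand, lay in the coding sequence of Aech_12422, the ant counterpart of quiver, which in the fly regulates sleep. Position 1969556 of scaffold 99 was at 53.4% ± 7.46, 36.3% ± 5.88 and 51.5% ± 8.29, with large workers lowest, and position 426410 of scaffold 829 at 32.0% ± 11.6, 48.5% ± 25.3 and 24.9% ± 9.20, with large workers highest. On scaffold 99 all large worker levels (30% to 41.7%) lay below those of both other castes, on scaffold 829 the castes overlapped, and neither site passed among the 3 castes (adjusted p = 0.391 and 0.444).

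Edited reads in all 3 libraries of a single caste and in no other were found at 22 sites for small workers, 3 for large workers and 2 for gynes. These are 1.71%, 0.234% and 0.156% of the isolated sites, where 0.885%, 0.0614% and 0.0491% of all A-to-G sites showed the same. Most of these were thin. Only 2 of the 22, 1 of the 3 and 0 of the 2 had 10 reads in all libraries. The clearest was position 2281377 of scaffold 35, with 5 of 60, 4 of 73 and 4 of 59 reads edited in small workers, 0 of 100 over large workers and 0 of 92 over gynes, which allow levels of up to 3% and 3.26% (adjusted p = 0.0835 among the castes). Position 596301 of scaffold 244 had 10 of 154 reads edited over small workers, 7 of them in colony A, against 0 of 66 over both large workers and gynes, which allows up to 4.55% in each. At position 373084 of scaffold 81 the counts were 19 of 111 over small workers, 0 of 52 over large workers and 0 of 42 over gynes, which allow up to 5.77% and 7.14%. At position 121820 of scaffold 436 they were 12 of 123, 0 of 48 and 0 of 80, and at position 2534025 of scaffold 244 they were 11 of 71, 0 of 43 and 0 of 31. The reads without editing allow up to 6.25% in large workers and 3.75% in gynes at the first of these, and up to 6.98% and 9.68% at the second. The 3 further small worker sites with most reads, on scaffold 344 (positions 824655 and 1058073) and scaffold 288 (position 1879826), had 8 of 50, 10 of 57 and 11 of 39 reads edited there, against 0 of at most 28 reads in large workers and 0 of at most 26 in gynes, which allow more than 10%. In these examples the other castes had fewer reads than small workers, and the part of depth was not tested. For large workers, position 1997220 of scaffold 10 had 4 of 30, 1 of 10 and 1 of 29 reads edited, against 0 of 131 over small workers and 0 of 120 over gynes, which allow up to 2.29% and 2.5% (adjusted p = 0.0789). For gynes, position 60552 of scaffold 328 had 6 of 25 reads edited, against 0 of 29 over small workers and 0 of 12 over large workers, too few reads to bound the level below 10%.

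Colonies differed less than castes. The mean level over the 3 castes was 7.32% in colony A, 6.86% in colony B and 7.25% in colony C. Edited reads in all 3 libraries of a single colony and in no other were found at 5 sites for colony A, 1 for colony B and 0 for colony C, all below the coverage minimum. In 4 of the 5 sites of colony A the other 6 libraries together held at most 8 reads. This was so at position 207330 of scaffold 211 (7 of 7 reads edited in colony A, 0 reads elsewhere), position 181380 of scaffold 490 (8 of 8, 1 read elsewhere), position 52171 of scaffold 487 (6 of 9, 1 read elsewhere) and position 71653 of scaffold 526 (7 of 10, 8 reads elsewhere). At position 112060 of scaffold 420, with 6 of 52 reads edited in colony A, the other colonies had 0 of 73. At position 5969 of scaffold 297, 8 of 39 reads were edited in colony B and 0 of 35 elsewhere.

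The authors marked a site as edited in a library where their own criteria were met. Of the 1284 sites, 96 (7.48%) were marked in all 9 libraries and 106 (8.26%) in a single one, with 101 to 184 sites at each number between. Marked sites made up 70.3%, 73.3% and 60.9% of them in small workers, 60.4%, 36.0% and 43.1% in large workers and 44.7%, 40.5% and 41.0% in gynes. Small workers were highest, and large workers of colony A reached the lowest small worker value to within a percentage point. At the 235 tested sites the marked share was 76.3% ± 3.02 in small workers, 60.3% ± 10.0 in large workers and 51.9% ± 2.25 in gynes (SD, n = 3). Marks need reads as well as editing, and both were highest in small workers.

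Around the isolated sites, annotated genes with edited rows were rarely close. On the same strand, 24 sites (1.87%) had a row in a gene within 1000 bases and 255 (19.9%) within 10000 bases, against 2.22% and 28.4% of clustered unannotated sites. Of the 24, the nearest row lay in a 3' UTR at 19, in coding sequence at 3 and in an intron at 2. Of the 255, it lay in a 3' UTR at 111, in an intron at 102, in coding sequence at 32 and in a 5' UTR at 10. Sites whose nearest gene row was in a 3' UTR lay downstream of it at 92 of 111, and those nearest to an intron at 58 of 102. For coding sequence it was 27 of 32 and for 5' UTRs 5 of 10, so lying downstream was not particular to 3' UTRs. Genes without edited rows are not listed in the table, so these distances are not distances to the nearest gene.

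A small number of isolated sites had company on the other strand. Within 50 bases, 55 sites had an A-to-G row on the opposite strand, 5 a row with another change on the same strand and 5 such a row on the opposite strand, in all 64 sites, of which 27 had such a row in an annotated gene. The site at position 838571 of scaffold 64, for example, lay 5 bases from a row in the 3' UTR of Aech_11318, the ant counterpart of RhoGEF3, on the other strand. At the 224 tested sites without such company the levels were 8.11% in small workers, 6.97% in large workers and 5.59% in gynes.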

How the data were processed

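The authors deposited 1 site table. Per the file headers it holds raw read counts of each base in DNA and RNA, packed into text cells (a unit other than plain counts), a mark where a site was called in a sample, and annotation, with positions on assembly Aech_2.0. Among tools, BWA 0.5.9-r16 is listed per the submitters' processing notes, and poly(A) RNA was made into strand-specific libraries with paired reads of 90 bases, per the labels' protocols. No source used here gives the calling rules. RNA reads over all sites numbered 479998 to 1037408 per library.

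For the 5720 sites with 10 or more RNA reads in each of the 9 libraries, edited reads were tested in R 4.3.3 by quasi-binomial regression. Pearson dispersions passed through squeezeVar of limma 3.58.1, which gave 1 shared value, with 1 as their minimum. F tests were adjusted by the Benjamini-Hochberg method over all 5720 sites, at 0.05. A call means passing that threshold. The script was tested on simulated data. Sets were compared by exact sign-flip or permutation tests over libraries with Python 3.11.15, NumPy 2.4.6 and pandas 2.3.3. No p is given for the mean level of the isolated sites between castes.

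Samples of the same replicate letter come from the same colony and are paired. Deviations from caste means correlated with r from -0.0225 to 0.0665 within colonies and -0.0561 to 0.0416 between them. Replicates of a caste differed by more than sampling noise (chi-square per degree of freedom 1.73 to 2.08). Named sites were the called ones without overlap (8 largest per direction), those called among 3 castes, the 5 highest, the 5 deepest, 3 on each side of the 50 base limit, and up to 10 seen in 1 caste or 1 colony. The members, lists and tests were chosen with earlier results of these data known. Alternatives were coverage minimums of 5 and 20, isolation limits of 25, 100 and 200 bases, the replicate block, other models and summaries, and leaving out each library. No genome sequence was used here, so no sequence around sites is given.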

Additional observations from a re-analysis of the deposited data

How the results depend on the processing

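Counts of called isolated sites depended on the model of the spread, and mean levels kept their direction under all alternatives run. For the tests among the 3 castes, of small workers against gynes and of small against large workers, the counts of 10, 14 and 4 sites became 0, 0 and 0 with the replicate block, 0, 0 and 0 with limma on arcsine-square-root levels (30, 31 and 23 at an unadjusted p under 0.05), 4, 2 and 1 with the larger of the shared and the own dispersion, and 6, 9 and 2 with an isolation limit of 200 bases, where fewer sites are members. Relative to the overall shift of the castes 6 sites passed between small workers and gynes (4 higher and 2 lower) and 0 between small and large workers. Leaving out 1 library, the counts lay between 0 and 4, 1 and 5, and 0 and 0, and 0 between large workers and gynes, as with all 9. In these fits and in that with the block the spread was no longer a single value for all sites. With a single dispersion, added after seeing the data, the block gave 17, 16 and 6 sites and leaving out 1 library 7 to 12, 7 to 14 and 1 to 4, with 8 between small workers and gynes without small workers of colony B, and 7 without gynes of colony B or C. The other settings moved these counts by at most 1.5 times.

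The difference in mean level between small workers and gynes lay between 2.07 and 3.69 points over 13 alternatives and between 2.49 and 2.89 points without 1 library. That between isolated and clustered sites lay between -14.5 and -4.22 points and between -8.23 and -7.95 points without 1 library. The difference between unannotated and annotated isolated sites was -0.214 points with summed reads and no longer passed. It was -1.55 points (exact sign-flip p = 0.00781) with summed reads and the 2 deepest sites left out, and lay between -2.21 and -1.99 points without 1 library. Leaving out the 2 deepest sites, added after seeing the data, changed the direction of none of these differences. Over the summed reads of all 1284 sites it put large workers of colony B at 8.32%, against 8.56% in gynes of colony B, where with them they stood at 8.79% against 8.70%. Depth kept 1049 of 1284 sites from being tested.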
